A study of Mus musculus with 9 samples.

Results

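Genes of the major histocompatibility complex (MHC) and of antigen processing were followed in 3 subsets of mouse γδ T cells on 9 Affymetrix Mouse Gene 2.0 ST arrays. A gene was taken where an array row carried exactly 1 gene symbol, and that symbol began with H2- or was B2m, Tap1, Tap2, Tapbp, Cd74, Ciita, Nlrc5, Psmb8, Psmb9, Psmb10, Psme1, Psme2, Erap1, Cd1d1 or Mr1. The row with the highest mean stood for a gene with several rows. This gave 48 genes of the 22180 with such a row, 34 of them with an H2- symbol, and 38 of the 48 lie on chromosome 17, which holds the mouse MHC. Another 11 names of the same kind occurred only in rows shared between genes and were not analysed here: Cd74 and the class I genes H2-D1, H2-Q2, H2-Q6, H2-Q7, H2-Q8, H2-Q9, H2-T3, H2-T9, H2-T18 and H2-T22.

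The RNA on every array came from γδ T cells of mice of the C57BL/6 strain, with no treatment or altered gene named in the labels and no age given. Each subset had 3 arrays. The cells called IELs were intraepithelial lymphocytes of the intestine, and the subsets called Naive-like and Type-1 came from peripheral lymph nodes. Tissue and subset therefore cannot be told apart in a comparison with IELs. The sources used here state neither the sorting gates of the subsets nor whether an array holds 1 mouse or a pool. The p-values therefore cover only the spread between these arrays, called biological replicates in the labels.

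Class I molecules pair a heavy chain with β2-microglobulin and show peptides cut by the proteasome and carried into the endoplasmic reticulum by the TAP transporter. Class II molecules show peptides made in endosomes, where H2-DM exchanges the invariant chain remnant for peptide and H2-O holds H2-DM back. Class I is carried by nearly all nucleated cells, whereas class II is made mainly by B cells, dendritic cells, macrophages and some epithelia. Conventional mouse T cells are not known for class II synthesis, and γδ T cells are known to recognise some non-classical class I molecules directly.

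All values are log2 values as deposited, n = 3 arrays per subset, and a difference is given with its standard error. Tests are limma's moderated test over all 22180 genes, with Benjamini-Hochberg adjusted p and a threshold of 0.05. Arrays of a subset correlated at 0.947 to 0.982 and arrays of different subsets at 0.912 to 0.975, and the number of arrays limits the precision. The 7 T-cell markers measured averaged 9.17 to 9.37 on the IEL arrays, 9.78 to 10.25 on the Naive-like and 9.67 to 9.85 on the Type-1 arrays, with Cd2 and Thy1 lower in IELs than in both other subsets and Cd3g and Zap70 higher than in Type-1 cells. The 29 measured markers of intestinal epithelium averaged 5.45 to 6.20 on the IEL arrays against 3.94 to 4.15 on the lymph node arrays. Of these 29, 19 rose in IELs against Naive-like cells and 17 against Type-1 cells, and none fell, beside 3.57% and 3.73% of all genes higher. Their part in the results below was not tested. In bulk RNA, fewer cells that express a gene and less RNA per cell cannot be told apart.

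**Figure D1:**
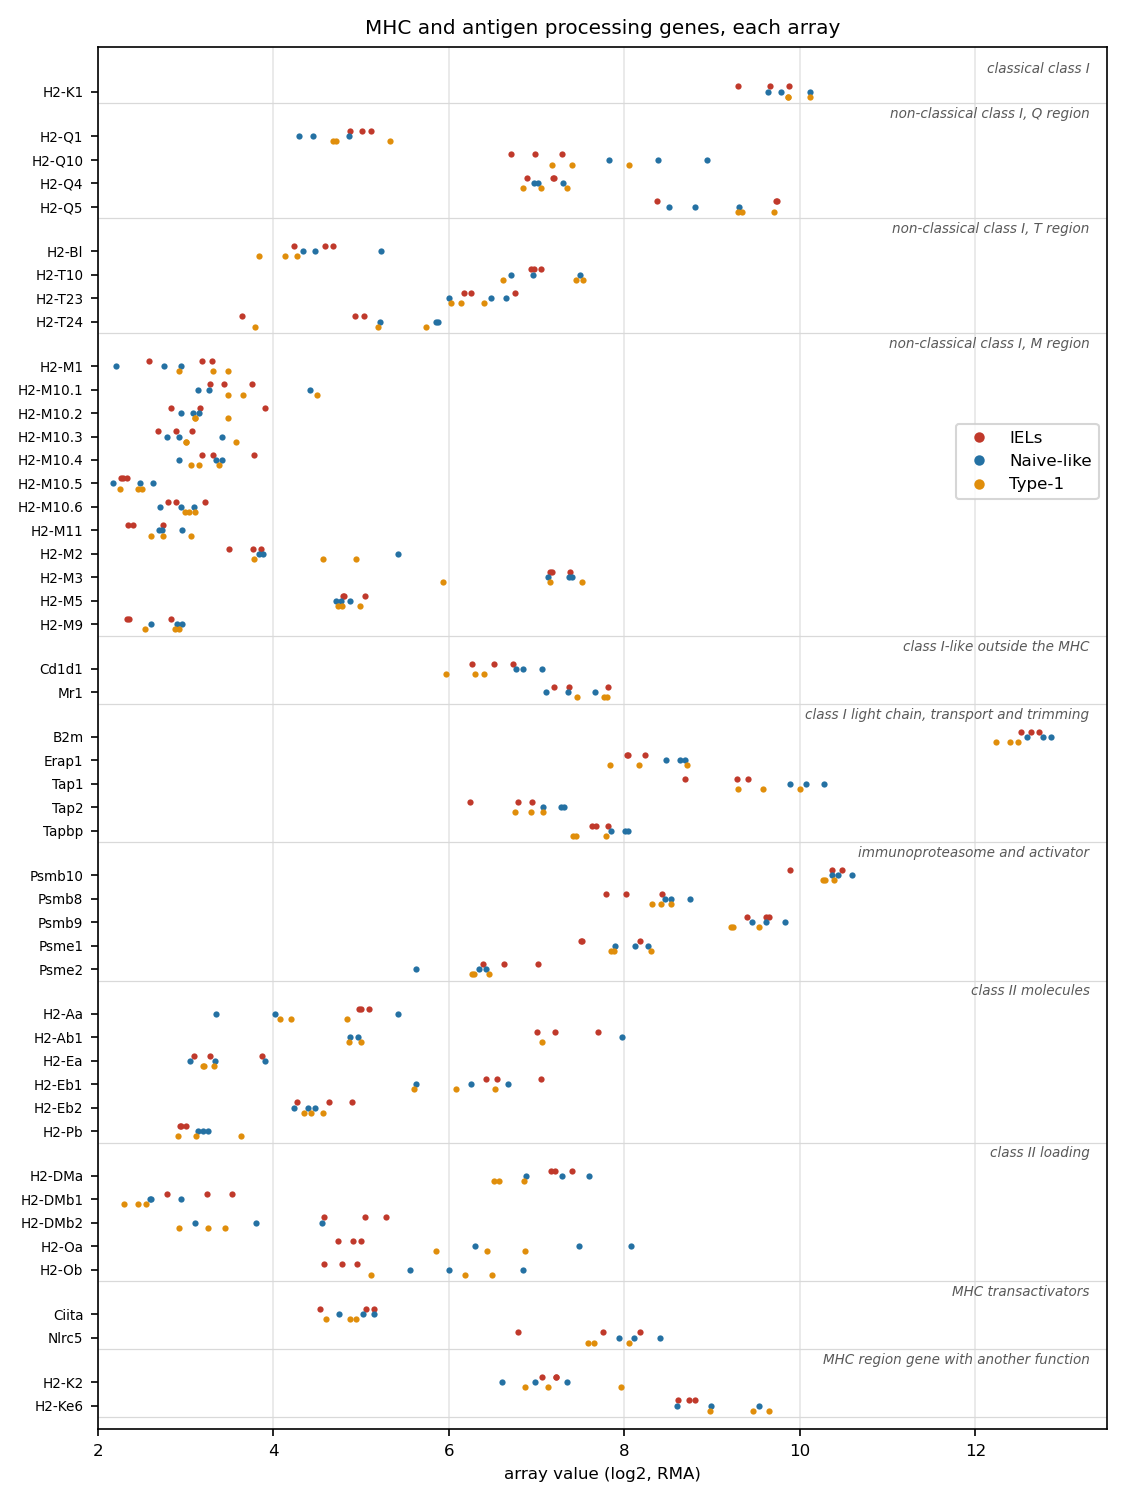
Each of the 48 genes is a line and each point 1 array on the log2 scale, coloured by subset and grouped by role. B2m lies between 12.24 and 12.87 on all 9 arrays, H2-Oa has its 3 IEL arrays below every lymph node array, and H2-Ab1 is split within the Naive-like and Type-1 subsets. Levels of different genes are not comparable, since each gene has its own probes.

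Against Naive-like cells, 3 of the 48 genes fell in IELs and none rose: the H2-O chain gene H2-Oa, the class I gene H2-Q10 and the transporter gene Tap1. That is set against 5.19% of all genes called in this comparison, 3.57% higher and 1.62% lower in IELs. Against Type-1 cells, H2-DMb2 rose and H2-Oa fell in IELs, 2 of 48, beside 5.14% of all genes, 3.73% higher and 1.41% lower. Type-1 against Naive-like cells, the comparison within lymph nodes, called 0 of 48 in limma at adjusted p, beside 0.284% of all genes. In that comparison 7 of 48 had an unadjusted p under 0.05 in limma, beside 1437 of all 22180 genes. The F test over the 3 subsets called H2-DMb2, H2-Oa and H2-Q10, 3 of 48, beside 5.41% of all genes. The counts called at adjusted p lie near the share of all genes, and the count lower in IELs than in Naive-like cells, 3 of 48, stands beside 1.62%.

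The largest differences among called genes were those of class II loading. H2-Oa, the α chain of H2-O, read 5.00, 4.73 and 4.91 on the IEL arrays, 7.48, 6.29 and 8.07 on the Naive-like arrays and 5.85, 6.43 and 6.87 on the Type-1 arrays. All IEL arrays lay below all lymph node arrays, while the ranges of the lymph node subsets met. The difference from Naive-like cells was -2.40 ± 0.39, 5.28-fold lower in IELs (limma adjusted p = 0.0024). It was called under all 22 alternatives, at adjusted p of 0.00012 to 0.048. The 0.00012 came from the fit without IEL replicate 1, Naive-like replicate 2 and Type-1 replicate 1, added after the values were seen. The lymph node arrays it leaves out had the lowest H2-Oa of their subsets. The difference from Type-1 cells was -1.50 ± 0.39, 2.84-fold lower (limma adjusted p = 0.045). The row that H2-Oa shares with BC051537 was not analysed. The call against Type-1 cells was lost without any one of the IEL arrays, Naive-like replicate 1, or Type-1 replicate 2 or 3 (adjusted p 0.069 to 0.15), and with array medians subtracted (0.082).

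H2-Ob, the partner β chain of H2-O, fell outside the rule for full values and is described because of that partnership, after its values were seen. It ranged from 4.57 to 4.95 in IELs, from 5.55 to 6.84 in Naive-like and from 5.11 to 6.49 in Type-1 cells, so the IEL arrays were again below all others. The differences of -1.36 ± 0.37 and -1.16 ± 0.37 did not pass (limma adjusted p = 0.058 and 0.11). Without Type-1 replicate 2 both did, at -1.36 ± 0.30 and -1.57 ± 0.33 (limma adjusted p = 0.019 and 0.021), and the first also did without Naive-like replicate 2, at -1.65 ± 0.39, or Type-1 replicate 1, at -1.36 ± 0.34 (limma adjusted p = 0.035 and 0.038). The numbers in the labels' descriptions put the arrays in 3 sets of 1 array per subset: lower numbers, higher numbers and those with a numeric code, whose meaning is not given in the sources used here. With this description set as a block the first was -1.36 ± 0.33 and passed, and the second did not (limma adjusted p = 0.041 and 0.076). Of 22 alternatives, the first passed under 12 and the second under 2, with limma adjusted p up to 0.36 and 0.37. Without any one of the IEL arrays the first did not pass (limma adjusted p 0.12 to 0.17).

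H2-DMb2 encodes a β chain of H2-DM, the peptide exchanger. It read 4.58, 5.28 and 5.04 in IELs, 4.55, 3.11 and 3.80 in Naive-like and 3.25, 3.45 and 2.92 in Type-1 cells. The IEL arrays were above all others, with 4.58 as the lowest IEL and 4.55 as the highest Naive-like value. Its difference from Type-1 cells was 1.76 ± 0.33, 3.39-fold higher in IELs (limma adjusted p = 0.0068), and from Naive-like cells 1.15 ± 0.33 (limma adjusted p = 0.074). The latter passed without Naive-like replicate 1 (1.51 ± 0.30) and with the description set as a block (1.15 ± 0.25; limma adjusted p = 0.016 and 0.021). It did not pass without Naive-like replicate 2 (0.79 ± 0.30) or IEL replicate 2 (0.99 ± 0.37; limma adjusted p = 0.27 and 0.24). The other β chain gene, H2-DMb1, ranged from 2.78 to 3.53, 2.59 to 2.95 and 2.30 to 2.54 in the same order of subsets, with a difference of 0.75 ± 0.22 from Type-1 cells (limma adjusted p = 0.086). That difference passed under 4 of 21 alternatives, among them without IEL replicate 3 (0.95 ± 0.22, limma adjusted p = 0.045), and reached 0.29 under others. The α chain gene H2-DMa ranged from 7.16 to 7.40, 6.88 to 7.59 and 6.51 to 6.85, with a difference of 0.62 ± 0.22 from Type-1 cells (limma adjusted p = 0.16). H2-DMb1 and H2-DMb2 are alike over long stretches, so a probe of one may read the other, and the genes need not be independent readings. Both were dim, with means of 2.78 and 4.00 over all arrays, below the 4.1 at which the dim-gene filter cut. All 5 loading genes thus had IEL and Type-1 arrays that did not overlap, the 3 H2-DM genes higher and both H2-O genes lower in IELs, beside 19.8% of all genes without overlap in that comparison.

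The labels' descriptions of replicate 3 of each subset carry a numeric code that the other 6 arrays lack. Among the 6 arrays without it H2-Oa differed by -2.02 from Naive-like and -1.28 from Type-1 cells, and between the arrays with it by -3.16 and -1.96. H2-DMb2 differed from Type-1 cells by 1.58 and 2.12 in the same way. In a fit of the 6 arrays alone, H2-Oa against Naive-like cells was the only one of these genes called (limma adjusted p = 0.048), and H2-DMb2 against Type-1 cells stood at 0.15.

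The promoters of these loading genes are shown because the genes neighbour each other and their differences in IELs had opposite signs, though those of H2-Ob did not pass. Each line is the stretch from 160 to 11 bases before a start in RefSeq's promoter set (GRCm38.p6), read along the gene. For H2-DMb2 that start lies downstream of the first base of the RefSeq gene, so its stretch lies within the gene. Capitals mark the Y box (CCAAT or its reverse ATTGG), to which NF-Y binds, and an X box match spelled AAC, any 2 bases, ATG, any base, TG. H2-Oa lies at chr17:34092219-34092368, H2-Ob at chr17:34238745-34238894 and H2-DMb2 at chr17:34145089-34145238, all on the plus strand.
H2-Oa: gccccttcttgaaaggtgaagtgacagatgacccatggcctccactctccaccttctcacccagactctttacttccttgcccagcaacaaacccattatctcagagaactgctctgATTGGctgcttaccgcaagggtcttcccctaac
H2-Ob: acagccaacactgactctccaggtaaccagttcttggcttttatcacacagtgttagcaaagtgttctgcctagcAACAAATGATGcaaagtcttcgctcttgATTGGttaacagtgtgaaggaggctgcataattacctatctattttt
H2-DMb2: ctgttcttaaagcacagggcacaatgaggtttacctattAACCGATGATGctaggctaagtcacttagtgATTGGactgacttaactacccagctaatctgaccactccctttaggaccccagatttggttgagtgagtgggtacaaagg
All 3 hold a Y box, at 43, 57 and 90 bases before the start. H2-Ob and H2-DMb2, whose differences in IELs had opposite signs, hold the X box match at 85 and 121 bases before the start. H2-Oa has no such match in its window. The X box spelling was chosen after reading these windows, so its count is no finding.

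The 6 class II molecule genes had no call, and in H2-Ab1, H2-Aa and H2-Eb1 the same 2 lymph node arrays were the highest of their subsets. H2-Ab1, the β chain of I-A, read 7.70, 7.21 and 7.00 in IELs, 4.87, 7.97 and 4.97 in Naive-like cells and 7.06, 5.00 and 4.86 in Type-1 cells. All IEL arrays were high, as were Naive-like replicate 2 and Type-1 replicate 1, and the other 4 arrays lay between 4.86 and 5.00. Its spread within subsets was the 40th largest of the 22180 genes. The differences of IELs from Naive-like (1.36 ± 0.75) and Type-1 cells (1.66 ± 0.75) did not pass (limma adjusted p = 0.48 and 0.29). Without Naive-like replicate 2 the first was 2.38 ± 0.53, and without Naive-like replicate 1 or 3 it was 0.83 ± 0.80 or 0.88 ± 0.82 (limma adjusted p = 0.028, 0.85 and 0.74). Without both high lymph node arrays and IEL replicate 1, which share the higher description numbers, the differences were 2.18 ± 0.23 and 2.17 ± 0.23 (limma adjusted p = 0.00026 and 0.00033), a choice made after seeing the values. With the description set as a block, 1.66 ± 0.41 against Type-1 cells passed (limma adjusted p = 0.043).

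H2-Aa, the α chain of I-A, read 4.97, 5.09 and 5.00 in IELs, 4.02, 5.42 and 3.34 in Naive-like and 4.84, 4.08 and 4.20 in Type-1 cells. The 2 high lymph node arrays exceeded the others by 1.74 and 0.71 against the mean of the other 2 arrays of their subset, beside 3.05 and 2.13 for H2-Ab1. H2-Eb1, the β chain of I-E, ranged from 6.42 to 7.05, 5.62 to 6.68 and 5.60 to 6.52. It was highest on those arrays, by 0.74 and 0.68 against the mean of the other 2. H2-Ea, whose promoter is deleted in C57BL/6 mice so that they lack surface I-E, ranged from 3.05 to 3.90 over all 9 arrays. H2-Eb2 ranged from 4.23 to 4.90 and H2-Pb from 2.92 to 3.63. On the 2 high arrays H2-Ea, H2-Eb2 and H2-Pb were not raised alike against the same mean, with 0.71 and 0.12 for H2-Ea, 0.16 and -0.14 for H2-Eb2, and -0.00 and 0.62 for H2-Pb. For H2-Aa the differences of 0.76 ± 0.41 and 0.65 ± 0.41 did not pass (limma adjusted p = 0.48 and 0.50), and the first was 1.34 ± 0.29 without Naive-like replicate 2 but 0.30 ± 0.38 without replicate 3 (limma adjusted p = 0.022 and 0.83).

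The promoters of the class II molecule genes H2-Aa (chr17:34287834-34287983, minus strand) and H2-Eb1 (chr17:34305707-34305856, plus strand) are shown for comparison with those of the loading genes. Capitals also mark the X2 core (TGACG or its reverse CGTCA), the part of the X region that CREB proteins bind.
H2-Aa: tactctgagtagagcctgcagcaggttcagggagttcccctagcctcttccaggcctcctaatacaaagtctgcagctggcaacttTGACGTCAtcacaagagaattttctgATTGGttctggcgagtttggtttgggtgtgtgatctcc
H2-Eb1: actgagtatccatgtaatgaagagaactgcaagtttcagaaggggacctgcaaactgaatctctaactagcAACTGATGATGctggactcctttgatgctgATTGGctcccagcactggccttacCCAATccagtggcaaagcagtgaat
H2-Aa holds the X2 core on both strands, overlapping at 74 and 71 bases before the start, ahead of a Y box at 48 bases. H2-Eb1 holds the X box match at 89 bases, as H2-Ob and H2-DMb2 do at 85 and 121, and Y boxes at 59 and 35 bases.

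**Figure D2:**
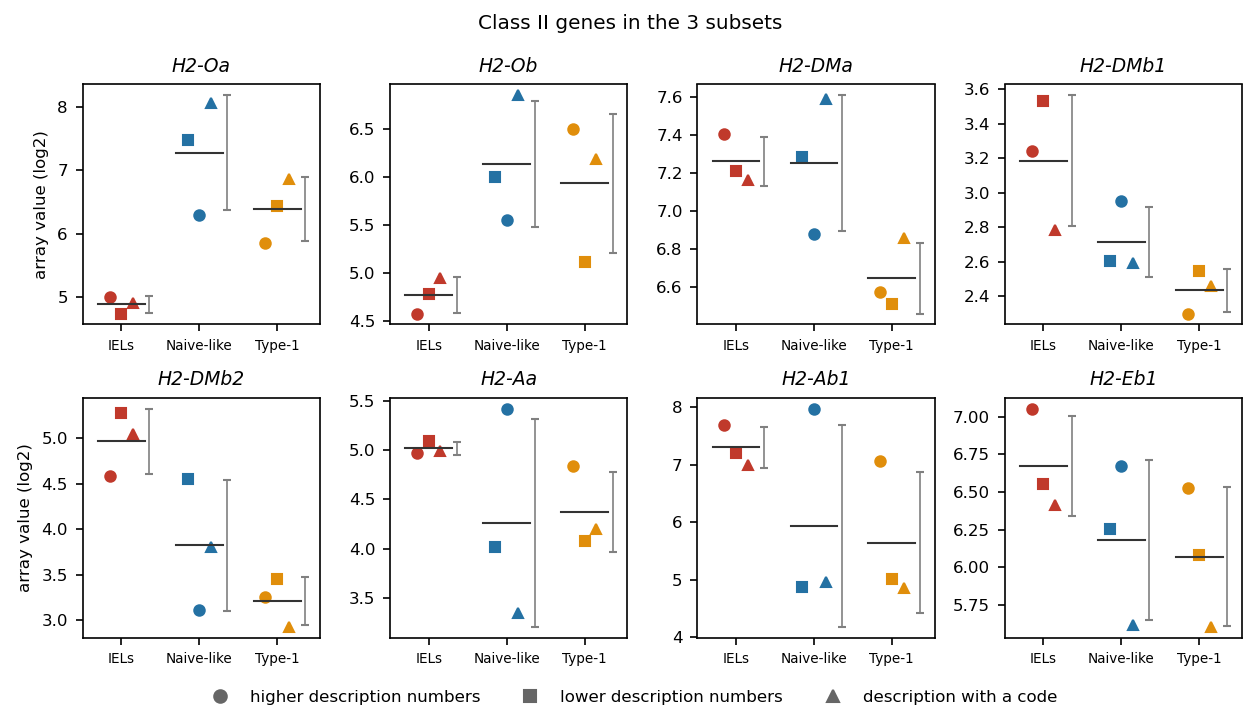
Points are arrays of 8 class II genes on the log2 scale, with bars at the subset mean and SD (n = 3), each panel with its own axis that does not start at 0. Shapes mark how the labels describe an array. In H2-Ab1, H2-Aa and H2-Eb1 the circles, the arrays with the higher description numbers, are the highest of the Naive-like and Type-1 subsets, and in H2-Oa they are the lowest.

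Markers of cells that make class II were read on the same arrays. The 14 B-cell markers measured averaged 3.95 to 4.19 on IEL arrays, 4.27 to 4.40 on Naive-like and 4.25 to 4.40 on Type-1 arrays, and Ighm alone was called, lower in IELs (-1.25 ± 0.21, limma adjusted p = 0.0029). Of its defining genes, Ms4a1 ranged over all 9 arrays from 2.90 to 3.47, Pax5 from 3.31 to 4.16, Cd22 from 3.62 to 4.48, Cd79a from 3.37 to 4.40, Cd79b from 5.81 to 7.00 and Ighm from 9.96 to 11.70, and without detection calls none can be called absent. Naive-like replicate 2 averaged 4.38 over that list, between the other Naive-like arrays. The 22 markers of dendritic cells and macrophages averaged 4.61 to 4.69, 4.30 to 4.63 and 4.26 to 4.55, and the arrays with high H2-Ab1 were the highest of both lymph node subsets, at 4.63 and 4.55. Of the 22 genes, 7 were highest on both of these arrays within their subsets (Adgre1, Ccl17, Cd68, Cd80, Fscn1, Lyz2 and Xcr1), as were 2 of the 14 B-cell markers and 12.8% of all genes. Lyz2, the macrophage lysozyme, lay above the mean of the other 2 arrays of the subset by 1.35 on Naive-like replicate 2 and 1.30 on Type-1 replicate 1. C1qb, in contrast, was the lowest of its subset on both arrays, at 3.89 and 4.0. Cd14 and Clec10a were highest on the first array and lowest on the second. Outside the list, S100a8, a gene of neutrophils and monocytes, lay above the same mean by 1.73 and 1.44, and the chemokine gene Ccl6 by 1.78 and 1.12. S100a8 read 3.96 and 4.23 there, below the median gene level of 4.52. In the marker list 2 of 22, Itgax and Cd80, rose in IELs against each lymph node subset and none fell, beside 3.57% and 3.73% of all genes higher. Itgax, the integrin chain CD11c, rose by 4.86 ± 0.29 and 3.94 ± 0.29 over Naive-like and Type-1 cells (limma adjusted p = 8.7e-07 and 6.3e-06). Itgax is also known on intraepithelial lymphocytes. Of all genes, 4 were more than 2 above the mean of the other 2 arrays of the subset on both high arrays: Apol7c, H2-Ab1, Olig3 and Snord82, with 4.31 and 3.01 for Apol7c. These genes, Lyz2, C1qb, Cd14, Clec10a, S100a8 and Ccl6 were singled out after their values were seen, and the part of other cells in the class II values was not tested.

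**Figure D3:**
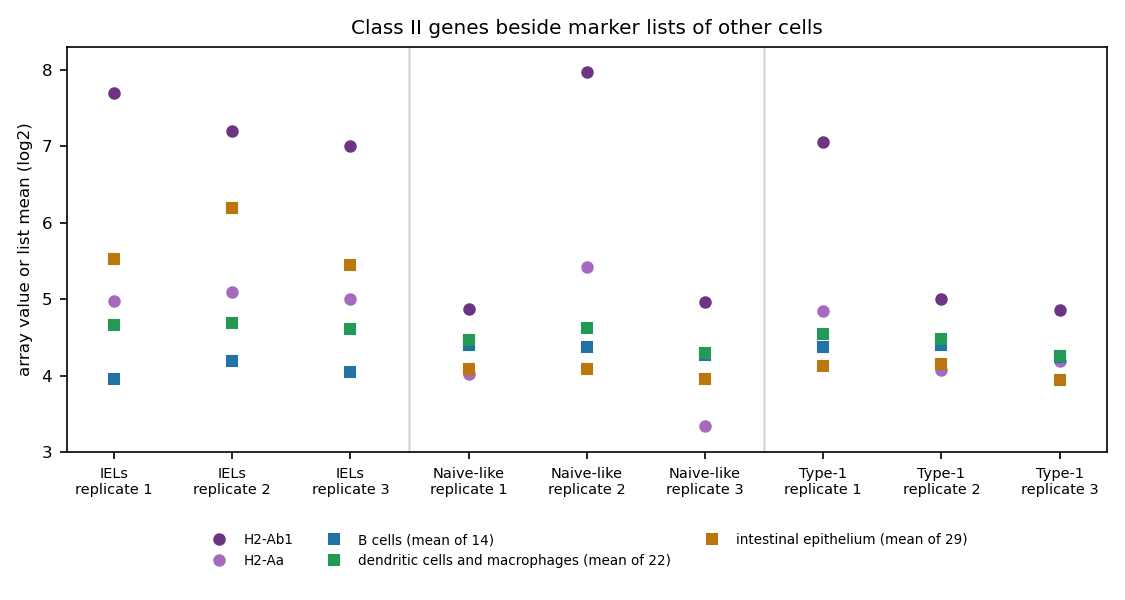
Points are the log2 values of H2-Ab1 and H2-Aa and the means of 3 marker lists on each of the 9 arrays. H2-Ab1 reaches 7.97 on Naive-like replicate 2 and 7.06 on Type-1 replicate 1, while the B-cell mean stays between 3.95 and 4.40 on all arrays and the epithelial mean is raised on the 3 IEL arrays.

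H2-K1, the classical heavy chain that had a row of its own, read 9.30, 9.88 and 9.65 in IELs, 9.79, 9.63 and 10.12 in Naive-like and 10.11, 9.87 and 9.87 in Type-1 cells. The 3 subsets overlapped, and no difference passed (-0.24 ± 0.22, 0.10 ± 0.22 and -0.34 ± 0.22 for IELs less Naive-like, Type-1 less Naive-like and IELs less Type-1; limma adjusted p = 0.76, 0.97 and 0.49). B2m, the light chain of classical and most non-classical molecules, read 12.73, 12.63 and 12.52 in IELs, 12.59, 12.87 and 12.77 in Naive-like and 12.24, 12.40 and 12.49 in Type-1 cells. The Type-1 arrays were below all others, by 0.37 ± 0.18 in the mean against Naive-like cells (limma adjusted p = 0.80).

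Of the 22 non-classical and class I-like genes, H2-Q10 was called. It encodes a class I molecule best known as a secreted product of the liver. Its row read 6.70, 7.29 and 6.98 in IELs, 8.38, 8.94 and 7.83 in Naive-like and 8.05, 7.40 and 7.18 in Type-1 cells, so IEL and Naive-like arrays did not overlap. The difference was -1.39 ± 0.31, 2.62-fold lower in IELs (limma adjusted p = 0.018). The other row of H2-Q10 went the opposite way, by 0.65, and with the mean of both rows the call was lost (difference -0.37, adjusted p = 0.58). The call was also lost without IEL replicate 1 or 3 or Naive-like replicate 1 or 2 (adjusted p 0.067 to 0.081) and on the 6 arrays without the code (0.052), where the difference was -1.66, against -0.85 between the arrays with it, and without the arrays of higher description numbers (0.076). Class I genes are alike over long stretches, so probes of Q and T region genes may read more than 1 gene.

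The promoters of H2-Q10 and H2-K1 are shown as those of the class I gene that was called and of the classical one. H2-Q10 lies at chr17:35469929-35470078 on the plus strand and H2-K1 at chr17:34000358-34000507 on the minus strand, from the most upstream start in the promoter set. The stretch of H2-K1 also lies within the RefSeq gene.
H2-Q10: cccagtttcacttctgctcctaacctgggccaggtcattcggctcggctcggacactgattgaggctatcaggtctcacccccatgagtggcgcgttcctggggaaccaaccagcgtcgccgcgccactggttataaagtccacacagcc
H2-K1: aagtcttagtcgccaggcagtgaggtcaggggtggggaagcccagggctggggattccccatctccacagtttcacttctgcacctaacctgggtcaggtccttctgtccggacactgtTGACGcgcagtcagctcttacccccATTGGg
The stretch of H2-K1 holds an X2 core 41 bases and a Y box 16 bases before its start, and that of H2-Q10 has no match to the Y box, X2 core or X box as spelled.

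The other non-classical genes had no call in the main comparisons. H2-T23, whose product Qa-1 is the ligand of CD94 and NKG2 receptors, read 6.75, 6.17 and 6.25 in IELs, 6.48, 6.00 and 6.65 in Naive-like and 6.40, 6.02 and 6.13 in Type-1 cells. H2-T10, kin of the γδ T cell ligand T22 and a transcribed pseudogene in RefSeq, read 7.04, 6.93 and 6.96, then 6.70, 6.96 and 7.49, then 7.45, 6.61 and 7.52. Neither separated the subsets, with sizes of difference up to 0.21 for both. H2-M3, which shows formylated bacterial peptides, read 7.38, 7.17 and 7.15 in IELs, 7.40, 7.37 and 7.12 in Naive-like and 5.93, 7.52 and 7.15 in Type-1 cells, with Type-1 replicate 1 below the other 8 arrays. H2-T24 had the largest uncalled difference of the group, from 3.64 to 5.03 in IELs against 5.21 to 5.87 in Naive-like cells (-1.11 ± 0.47, limma adjusted p = 0.29). H2-Q1, H2-Q4, H2-Q5 and H2-Bl had differences between -0.60 and 0.57 in the 3 comparisons, in the rows used. A dimmer row of H2-Q5 gave 0.79 for Type-1 less Naive-like cells and -0.61 for IELs less Type-1 cells. In that row the Type-1 arrays lay above all others, and it was not tested on its own.

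None of the 12 M region genes was called. The M10 family with H2-M1 and H2-M9, known from vomeronasal neurons in the mouse, gave values from 2.17 to 4.49 over all arrays. Among the 12, no comparison had a gene whose subsets did not overlap, beside 20.1% of all genes for IELs and Naive-like cells, 11.4% for the lymph node subsets and 19.8% for IELs and Type-1 cells. H2-M2 ranged from 3.49 to 5.42, with differences of IELs of -0.67 ± 0.40 from Naive-like and -0.72 ± 0.40 from Type-1 cells (limma adjusted p = 0.54 and 0.42). H2-M1 differed by 0.60 ± 0.26 in Type-1 against Naive-like cells (limma adjusted p = 0.73). H2-M5 ranged from 4.71 to 5.05 and H2-M11 from 2.34 to 3.06.

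Outside the MHC, Cd1d1, which shows lipids to natural killer T cells, read 6.73, 6.52 and 6.26 in IELs, 7.05, 6.77 and 6.84 in Naive-like and 6.30, 5.97 and 6.40 in Type-1 cells. The Naive-like arrays were above the rest. Type-1 cells differed from them by -0.67 ± 0.20 (limma adjusted p = 0.44), with the smallest unadjusted p of the 48 genes in that comparison. Mr1, which shows vitamin B metabolites to MAIT cells, read 7.81, 7.20 and 7.37, then 7.11, 7.36 and 7.66, then 7.80, 7.46 and 7.76, and the subsets overlapped.

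Of the 10 class I processing genes, Tap1 alone passed in IELs against Naive-like cells, and the differences of the 10 were negative in 9. A list of 20 other genes of class I loading and peptide supply, given further on, had positive differences in 15. Tap1, a subunit of the peptide transporter, read 8.69, 9.41 and 9.28 in IELs, 10.07, 9.89 and 10.28 in Naive-like and 9.29, 9.58 and 10.00 in Type-1 cells. The IEL arrays lay below the Naive-like arrays and the Type-1 arrays overlapped both. The difference was -0.95 ± 0.25, 1.94-fold lower in IELs (limma adjusted p = 0.048), and it was -0.93 among the arrays without the code and -1.0 between those with it. The call was lost without any one of the 3 IEL or 3 Naive-like arrays or Type-1 replicate 2 (adjusted p 0.061 to 0.17), with array medians subtracted (0.066), on the 6 arrays without the code (0.22) and without the arrays of higher description numbers (0.11).

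The genes next to Tap1 in the pathway gave smaller values in the same direction. Tap2, the partner subunit, differed by -0.57 ± 0.22, Erap1, which trims peptides, by -0.50 ± 0.23, and Tapbp, tapasin, by -0.26 ± 0.19 (limma adjusted p = 0.23, 0.36 and 0.66). With Tap1 these are 4 of 5 genes of light chain, transport and trimming whose IEL and Naive-like arrays did not overlap, beside the 20.1% of all genes. A dimmer row of Tapbp gave 0.26, the opposite sign. Against Type-1 cells 1 of these 5, B2m, did not overlap, beside 19.8% of all genes, at 0.25 ± 0.18 higher in IELs (limma adjusted p = 0.55).

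Of the immunoproteasome, Psmb8 read 8.43, 8.02 and 7.79 in IELs, 8.53, 8.46 and 8.75 in Naive-like and 8.53, 8.31 and 8.42 in Type-1 cells. The IEL arrays were below the Naive-like arrays, 8.43 at the highest against 8.46 at the lowest, and the difference of -0.50 ± 0.21 did not pass (limma adjusted p = 0.27). The other catalytic subunit genes Psmb9 and Psmb10 and the activator genes Psme1 and Psme2 overlapped between subsets in every comparison, and Psme2 was the 1 gene of the 10 with a positive difference (0.55 ± 0.25, limma adjusted p = 0.34).

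The Tap1 promoter is shown because Tap1 was called while Psmb9, read from the opposite strand, was not. The window from 250 bases before to 50 after the start of Tap1, chr17:34187306-34187605 on the plus strand, shares 275 bases with that of Psmb9.
Tap1: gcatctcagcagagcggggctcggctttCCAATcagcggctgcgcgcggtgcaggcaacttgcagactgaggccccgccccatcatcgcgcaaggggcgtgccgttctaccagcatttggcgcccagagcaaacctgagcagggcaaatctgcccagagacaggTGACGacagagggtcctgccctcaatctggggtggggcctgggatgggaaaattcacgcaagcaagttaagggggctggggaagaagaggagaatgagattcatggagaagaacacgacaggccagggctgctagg
It holds a Y box 222 bases and an X2 core 86 bases before the start of Tap1.

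The transactivators of both classes showed no call. Nlrc5, which drives class I genes, read 6.78, 7.75 and 8.18 in IELs, 8.11, 7.94 and 8.41 in Naive-like and 7.66, 7.59 and 8.05 in Type-1 cells, with IEL replicate 1 below the other 8 arrays. Ciita, which drives class II genes, read 4.53, 5.15 and 5.05 in IELs, 5.14, 5.03 and 4.75 in Naive-like and 4.94, 4.88 and 4.60 in Type-1 cells. Ciita overlapped in every comparison, and its values on the lymph node arrays with high H2-Ab1, 5.03 and 4.94, lay within the 4.60 to 5.14 of the other lymph node arrays. Of the MHC region genes with another function, the pseudogene H2-K2 and the dehydrogenase gene H2-Ke6 had no call, and H2-Ke6 was -0.64 ± 0.26 in IELs against Type-1 cells (limma adjusted p = 0.23).

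Set side by side, in IELs against Naive-like cells the median difference was -0.24 for H2-K1, -0.07 for the 22 non-classical and class I-like genes, -0.31 for the 10 class I processing genes and 0.23 for the 11 class II genes, beside -0.01 for all genes tested. In IELs less Type-1 cells these were -0.34, -0.14, -0.10 and 0.60, beside -0.03. In Type-1 against Naive-like cells they were 0.10, 0.03, -0.31 and -0.20, beside 0.03. The class II differences ran from -2.40 to 1.36 in the first comparison and from -1.50 to 1.76 in the second, so that their median describes no common shift. Between IELs and Naive-like cells 4 of 11 class II, 4 of 22 non-classical and 5 of 10 processing genes did not overlap, and between IELs and Type-1 cells 6 of 11, 0 of 22 and 1 of 10. Over all 48 genes, 13 did not overlap between IELs and Naive-like cells, 7 between the lymph node subsets and 8 between IELs and Type-1 cells, beside 20.1%, 11.4% and 19.8% of all genes. No test between classes was made.

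**Figure D4:**
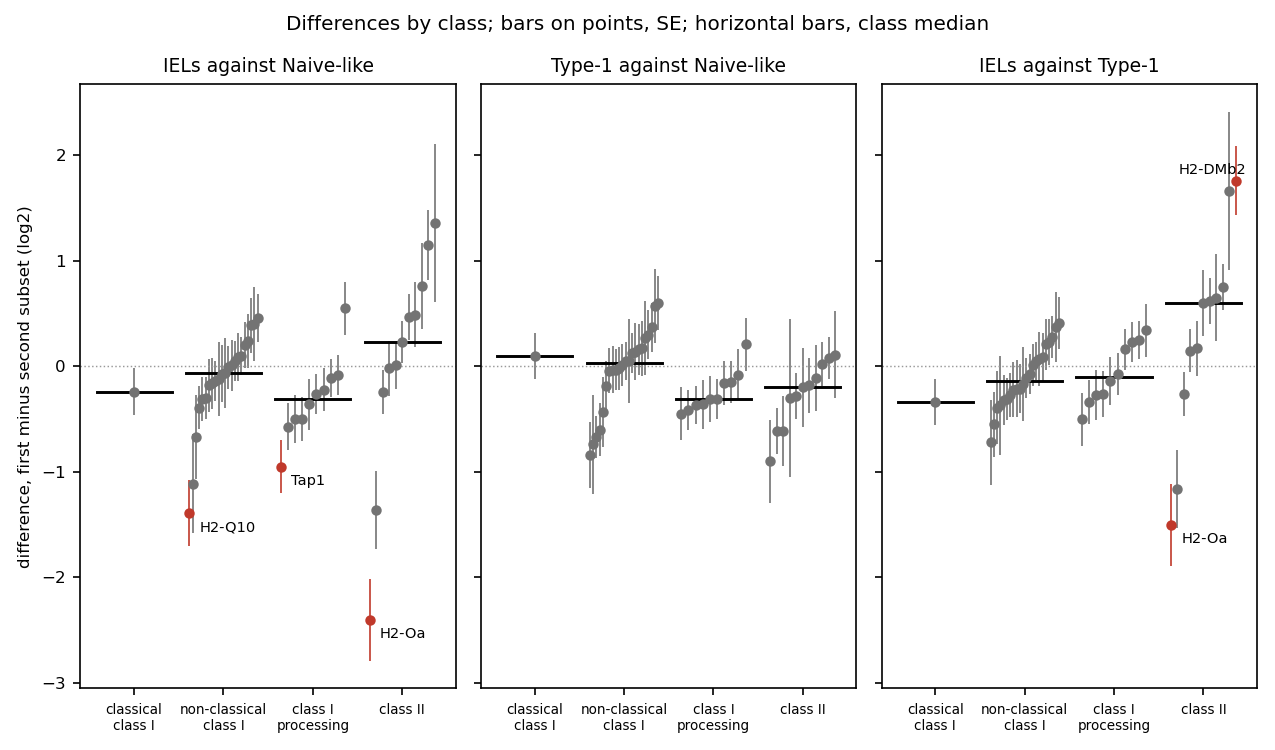
Each point is the difference of 1 gene in log2 (first minus second subset) with its standard error, sorted within 4 classes, with red for adjusted p under 0.05 and a bar at the class median. Class II spans from -2.40 to 1.36 against Naive-like and from -1.50 to 1.76 against Type-1 cells, while no gene is red in Type-1 against Naive-like.

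In RefSeq's promoter set, 35 of the 48 genes had an entry, 39 windows of 300 bases in all. The Y box, CCAAT on either strand, was found in 29 of the 39 windows and in 37.4% of all 32851 windows. The X2 core TGACG was in 15 of 39 and 20.8%, and both motifs together were in 13 of 39 and 7.7%. By role, the X2 core was in none of the 6 windows of loading genes, in 1 of 3 of class II molecules and in 6 of 13 of M region genes. The interferon response element core, GAAA, any 2 bases, GAAA, was in 4 of 39 and 3.4%, at B2m, Erap1, Psme1 and H2-T23. The interferon-γ activated site TTCNNNGAA was in 4 of 39 and 8.3%, and the κB spellings GGG, any 5 bases, CC and GGGATTTCC were in 19 and 1 of 39, against 50.8% and 0.3%. Windows of neighbouring starts overlap, and a match is a spelling only.

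Other genes of the same pathways were read from lists. For class II processing, 2 of 18 rose and 1 fell in IELs against Naive-like cells, and 1 rose and 1 fell against Type-1 cells, beside 3.57% of all genes higher and 1.62% lower in the first comparison and 3.73% and 1.41% in the second. Ctss, cathepsin S, which cuts the invariant chain, fell by 1.58 ± 0.22 and, against Type-1 cells, by 1.24 ± 0.22 (limma adjusted p = 0.00088 and 0.0056). Ctsb, the lysosomal protease cathepsin B, rose by 1.02 ± 0.24 and 1.22 ± 0.24 (limma adjusted p = 0.028 and 0.011). Marchf8, a ubiquitin ligase that acts on class II, rose by 1.02 ± 0.25 against Naive-like cells (limma adjusted p = 0.03). Median differences of the list were -0.07 and -0.06, near those of all genes.

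For class I loading and peptide supply, 1 of 20 rose and 1 fell in IELs against Naive-like cells, the protease gene Ide (1.19 ± 0.28) and Tapbpl, a peptide editor related to tapasin (-0.79 ± 0.20; limma adjusted p = 0.024 and 0.043), beside 3.57% of all genes higher and 1.62% lower. The differences were positive for 15 and negative for 5, with a median of 0.18. Of the 20, 7 did not overlap, beside 20.1% of all genes, and 6 of these were higher in IELs, beside 2412 of all 22180 genes. The list averaged 7.75 to 7.77 on IEL, 7.45 to 7.70 on Naive-like and 7.32 to 7.65 on Type-1 arrays. Against Type-1 cells 16 were positive, with a median of 0.17. None of the 20 was called against Type-1 cells, where 5 had an unadjusted p under 0.05 in limma, beside 3609 of all 22180 genes.

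For interferon signalling to MHC genes, 2 of 20 rose and 4 fell in IELs against Naive-like cells, and 2 rose and 2 fell against Type-1 cells, beside the same shares of all genes. The list's median differences were -0.20 and 0.01. Usp18, an interferon-induced brake on the type I receptor, read 5.66, 5.53 and 5.61 in IELs, 8.44, 8.59 and 8.54 in Naive-like and 8.59, 8.02 and 8.0 in Type-1 cells. It fell by 2.92 ± 0.20 and 2.60 ± 0.20 (limma adjusted p = 3.3e-06 and 1.1e-05). The transcription factor gene Irf8 rose by 1.79 ± 0.34 and 1.86 ± 0.34 (limma adjusted p = 0.0074 and 0.0064). The interferon-γ receptor chains moved apart, Ifngr1 by 0.95 ± 0.25 and Ifngr2 by -1.45 ± 0.35 against Naive-like cells (limma adjusted p = 0.046 and 0.03). Against Type-1 cells Irf2 rose by 1.00 ± 0.23 and the kinase gene Jak1 fell by 0.88 ± 0.22 (limma adjusted p = 0.028 and 0.035).

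A list made for receptors that bind MHC molecules was read last. Its called genes include Lilrb4a, Klrk1 and Cd3g, whose binding to MHC molecules was not examined, so the list may be wider than its name. Of 18 measured, 4 rose and none fell in Type-1 cells against Naive-like cells, 7 rose and 1 fell in IELs against the same, and 6 rose and 2 fell in IELs against Type-1 cells, beside 0.284%, 5.19% and 5.14% of all genes called. Klrd1, the CD94 chain of the Qa-1 receptor, was higher by 1.64 ± 0.20, 2.87 ± 0.20 and 1.23 ± 0.20 in this order (limma adjusted p = 0.0028, 3.3e-06 and 0.0028). By contrast, Klrc2, an activating NKG2 partner of CD94, rose in Type-1 against Naive-like cells by 4.03 ± 0.35 and fell in IELs against Type-1 cells by 3.08 ± 0.35 (limma adjusted p = 0.00015 and 0.00019). The Qa-1 gene H2-T23 itself had differences of -0.19, 0.01 and 0.21 in the same order. The list's largest differences in IELs against Naive-like cells were those of Lilrb4a (5.28 ± 0.61), Klra5 (5.05 ± 0.45) and Cd8a (3.40 ± 0.44). Its 1 called gene lower in that comparison was Cd8b1, by 2.81 ± 0.47 (limma adjusted p = 0.0031). Klrc and Klra genes have near copies, which their probes may read too. In Type-1 against Naive-like cells none of the genes in the class I, class II and interferon lists was called in limma. There 1 of 20, 1 of 18 and 4 of 20 had an unadjusted p under 0.05 in limma, beside 1437 of all 22180 genes. The 3 comparisons share arrays, so their calls are not independent of each other.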

How the data were processed

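The deposited values of 9 arrays, grouped by sample titles, are on the log2 scale and cover 41345 rows. Per the submitters' processing notes, the authors used oligo and RMA, with no versions in the sources used here. RMA compresses differences of dim genes, and without detection calls background cannot be placed. The platform annotation gave 23521 rows 1 symbol, 1814 several and 16010 none.

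Each of 22180 genes was tested by its row of highest mean with limma 3.58.1 (R 4.3.3), 1 mean per subset over all 9 arrays and eBayes with 6 residual degrees of freedom, two-sided, threshold 0.05, Benjamini-Hochberg over all genes. The fit was tested on simulated data. Python 3.11.15 with pandas 2.3.3, numpy 2.4.6 and matplotlib 3.10.9 made tables and plots. Promoters came from RefSeq (GRCm38.p6). Gene coordinates are not printed, since the array table names no build.

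The genes and lists were chosen with earlier results of these data known. Values on all arrays are given for called genes, the 2 genes of largest difference per comparison and a preset list of well known genes, and ranges for the rest. Of each list up to 4 called genes per comparison were eligible for naming. Alternatives changed the dim-gene filter, scaling (medians subtracted, quantile, cyclic loess), spread (trend and robust), array weights, row choice, blocks (replicate number, description set, code) and arrays (subsets compared, no code, each left out). A further alternative, without the arrays of higher description numbers, was added after the values were seen and is counted with the others. Same-numbered replicates did not deviate together in every pair (correlations from -0.015 to 0.382), so the numbers were not taken as pairs. Arrays of 1 description set correlated at 0.073 to 0.382 in all 9 pairs, and the other pairs at -0.29 to 0.123. The main fit has no term for these sets, whose meaning is not given, and the fit with them as a block is among the alternatives.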

Additional observations from a re-analysis of the deposited data

How the results depend on the processing

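Against Naive-like cells, the count of genes called in IELs was 5 with array weights, 5 with the replicate block, 5 with the description set as a block and 1 on the arrays without the code, against 3. Against Type-1 cells it was 1 with dim genes filtered, a filter that removes H2-DMb2, 1 with array medians subtracted, 4 with the replicate block and 0 on the arrays without the code, against 2. In the F test it was 5 with the replicate block and 0 on the arrays without the code, against 3. Each array left out in turn gave 1 to 4, 1 to 2 and 1 to 3. Type-1 against Naive-like cells gave 0 under every alternative. The median difference of class I processing genes in IELs against Type-1 cells was 0.12 on the arrays without the code, against -0.10, and that of H2-K1 was -0.10 without the arrays of higher description numbers, against -0.34. The cause of these changes was not tested, beyond fewer arrays or genes where those are left out. The replicate block added H2-Ob, H2-T24 and H2-DMb1 to the calls. Of 1053 alternative values of 16 named genes, 1018 kept their side of the threshold, 26 lost and 9 gained a call. Most of these values were not called in the main fit and had no call to lose. Against Naive-like cells, the call of Tap1 was lost under 10 of 22 alternatives, that of H2-Q10 under 7 and that of H2-Oa under 0. Against Type-1 cells, H2-Oa lost its call under 8 of 22 and H2-DMb2 under 1 of 21. No called value changed sign, while 40 uncalled values did. Depth has no counterpart here, and signal over background is not given.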
